A study of Mus musculus with 8 samples.

Results

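The integrated stress response transcription factors and Trib3 were followed in the liver as a set of 10 genes chosen by name: Atf3, Atf4, Atf5, Ddit3, Cebpb, Cebpg, Nupr1, Trib3, Chac1 and Sesn2. They are 10 of the 35275 genes in the count table, and all 10 had enough reads to be among the 13168 genes tested. The livers came from 4 Pcx L-/- males and from 4 male littermates with the genotype Pcx f/f, which serve as controls and which the sample labels call WT. All were C57BL/6 mice of 9 weeks that had been fasted for 24 h, and each gave 1 library of total RNA. In Pcx L-/- mice Albumin-Cre removed the floxed exon 10 of Pcx, which encodes pyruvate carboxylase, from hepatocytes, so cells without Albumin-Cre kept the gene. Both groups carried the floxed allele, and no fed liver was sequenced. The series thus compares genotypes within the fasted state.

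The integrated stress response starts when 1 of the eIF2α kinases (Perk, Gcn2, Pkr or Hri) phosphorylates the translation factor eIF2. Most translation then slows, whereas mRNAs with particular upstream open reading frames, such as those of Atf4, Atf5 and Ddit3, are translated better. Atf4 is a basic leucine zipper (bZIP) factor that binds DNA as a dimer, often with a C/EBP protein, and switches on genes for amino acid synthesis, amino acid transport and tRNA charging. In the liver the pathway is known for its answer to shortage of amino acids, endoplasmic reticulum stress and mitochondrial dysfunction. Since Atf4 and its relatives are controlled at translation, an mRNA level does not give the level of the protein.

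In the fasted liver, 7 of the 10 genes were more abundant in Pcx L-/- liver, namely Nupr1, Trib3, Atf3, Ddit3, Atf5, Atf4 and Cebpg. Their fold differences ran from 146-fold for Nupr1 to 1.37-fold for Cebpg, and 0 genes of the set were lower at an adjusted p under 0.05 in edgeR. Cebpb, Chac1 and Sesn2 did not pass the test. Of all 13168 genes tested, 14.1% were called higher and 13.5% were called lower. At least a doubling was called for 5 of the 10, against 3.65% of all genes. For 7 of the 10 the lowest Pcx L-/- mouse lay above the highest control mouse, against 15.1% of all genes. The median log2 fold change was 1.37 over the 10 genes and -0.01 over all genes tested. The 10 genes were chosen with earlier results of these data known, so these comparisons describe the set and do not test it. Between 6 and 7 of the 10 genes were called higher under each of 18 other settings.

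Libraries held 12016242 to 20023108 reads on genes. Levels are given as normalized CPM, which are reads per 1000000 reads after scaling by edgeR's TMM factors, and each ± is an SD over 4 mice. Pcx itself fell from 1116 ± 191 to 40.1 ± 5.29 CPM, which is 3.6% of control (log2 fold change -4.80, adjusted p = 3.66e-07). Pcx L-/- replicate 1 and WT replicate 4 stood apart from their groups, with median Spearman correlations to libraries of the same genotype of 0.9796 and 0.9806 against at least 0.9879 for the others. Their TMM factors, 0.9696 and 0.833, were also the lowest of their genotypes. All 7 hepatocyte markers in the table had reads, and their summed level was 53283 to 81146 CPM in Pcx L-/- and 92676 to 115187 CPM in control liver, with 2 of the 7 called lower. Of the other liver cell markers, 1 of 10 macrophage genes was called higher, 1 of 10 endothelial and 1 of 5 cholangiocyte genes were called lower, and 0 of 10 stellate and 0 of 5 leukocyte genes were called. In bulk liver, fewer cells of a type and less RNA per cell cannot be told apart. The part of cell makeup in the results was not tested.

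**Figure D1:**
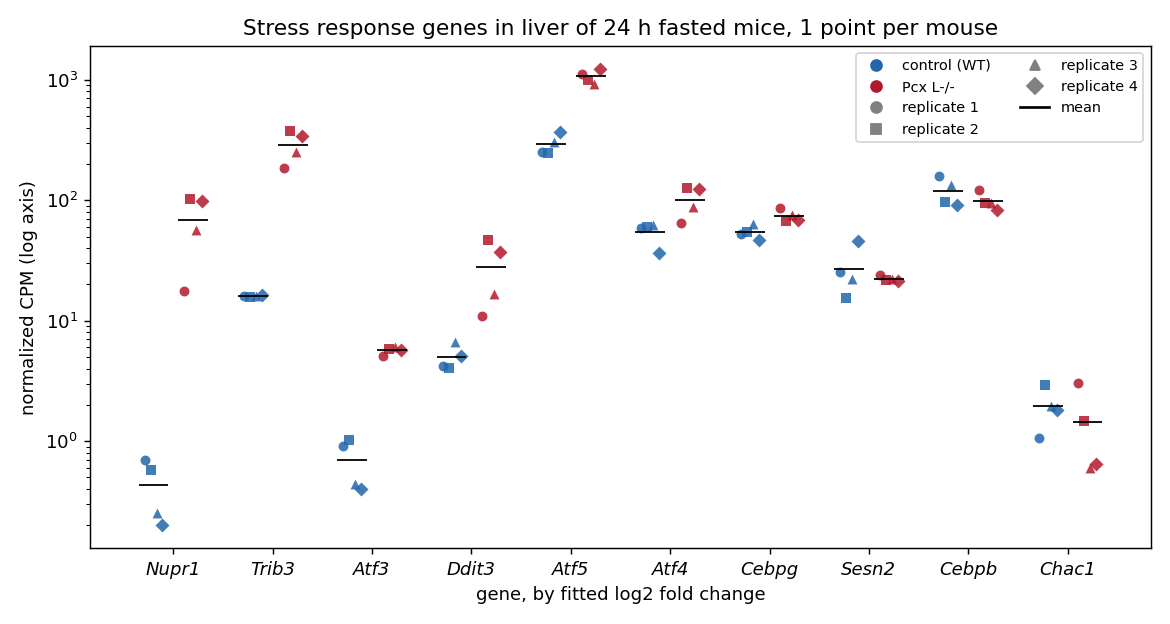
Normalized CPM (log axis) of the 10 genes in each of the 4 control mice (blue) and 4 Pcx L-/- mice (red), with the symbol giving the replicate and the bar the mean. The genotypes are separate for Nupr1, Trib3, Atf3, Ddit3, Atf5, Atf4 and Cebpg, and they overlap for Sesn2, Cebpb and Chac1.

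Atf4, the factor at the centre of the pathway (ENSMUSG00000042406, GRCm38 chr15:80255184-80257541, plus strand), was measured at 65.0, 126, 88.3 and 125 CPM in Pcx L-/- replicates 1 to 4. The controls gave 59.2, 59.9, 62.9 and 36.5 CPM. The groups did not overlap, but the lowest Pcx L-/- mouse exceeded the highest control by only 1.03-fold. Atf4 rose 1.85-fold (log2 fold change 0.89, SE 0.23, adjusted p = 0.0147). Without Pcx L-/- replicate 4 the log2 fold change was 0.77 and the adjusted p 0.0518.

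Atf5, a close relative of Atf4 with a part in the mitochondrial stress response (ENSMUSG00000038539, chr7:44812256-44816658, minus strand), gave 1107, 998, 930 and 1235 CPM in Pcx L-/- liver. The controls gave 252, 247, 307 and 370 CPM. Every Pcx L-/- mouse was thus far above every control, and Atf5 rose 3.63-fold (log2 fold change 1.86, SE 0.17, adjusted p = 1.69e-04). Its exons overlap those of Nup62 and Il4i1 on the other strand. Il4i1 had 352 reads over the 8 libraries against at least 3705 for Atf5 in each library. The GENCODE M21 identifier of Nup62 was not in the count table, so its reads were not compared with those of Atf5.

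Atf3, a stress-induced bZIP factor that is scarce in resting liver (ENSMUSG00000026628, chr1:191170296-191218039, minus strand), had 5.11, 5.80, 6.09 and 5.73 CPM in Pcx L-/- liver. The controls had 0.912, 1.02, 0.443 and 0.4 CPM, from 4 to 17 reads each. The 4 Pcx L-/- mice lay close together, with a coefficient of variation of 7.24%, while counting error alone is 8.67% at the 133 reads of the deepest count. Atf3 rose 7.84-fold (log2 fold change 2.97, SE 0.27, adjusted p = 1.69e-04).

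Ddit3 encodes Chop, a C/EBP relative that dimerizes with other bZIP factors and is linked to cell death under prolonged stress (ENSMUSG00000025408, chr10:127290774-127296288, plus strand). It had 10.9, 47.2, 16.7 and 37.1 CPM in Pcx L-/- replicates 1 to 4, against 4.24, 4.09, 6.71 and 5.1 CPM in controls. The groups did not overlap, although the Pcx L-/- mice differed among themselves by 4.33-fold. Ddit3 rose 5.57-fold (log2 fold change 2.48, SE 0.42, adjusted p = 0.00232). Ddit3 shares exon sequence with Mars on the other strand, and it is not known here whether counting used strand. Mars, a methionyl-tRNA synthetase, was at 68.0 ± 3.1 CPM in Pcx L-/- and 58.3 ± 5.82 CPM in control liver and was not called (adjusted p = 0.127).

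Of the C/EBP factors, Cebpg, a partner of Atf4 in dimers (ENSMUSG00000056216, chr7:35046422-35056573, minus strand), had 85.8, 67.2, 75.5 and 68.8 CPM in Pcx L-/- liver. The controls had 52.0, 55.0, 63.4 and 46.4 CPM, so the groups were apart by 1.06-fold at their nearest mice. Cebpg rose 1.37-fold (log2 fold change 0.45, SE 0.12, adjusted p = 0.0198), the smallest of the 7 called differences. Its adjusted p was 0.0535 without Pcx L-/- replicate 3 and 0.0586 without WT replicate 1.

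Cebpb, a C/EBP factor with many roles in hepatic metabolism and inflammation (ENSMUSG00000056501, chr2:167688915-167690418, plus strand), had 121, 94.3, 94.2 and 82.5 CPM in Pcx L-/- liver and 158, 97.3, 134 and 91.1 CPM in controls. The groups overlapped (log2 fold change -0.30, SE 0.19, adjusted p = 0.264), and the log2 fold change was 0.01 by limma on FPKM. Tmem189 shares exon sequence with Cebpb on the other strand.

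**Figure D2:**
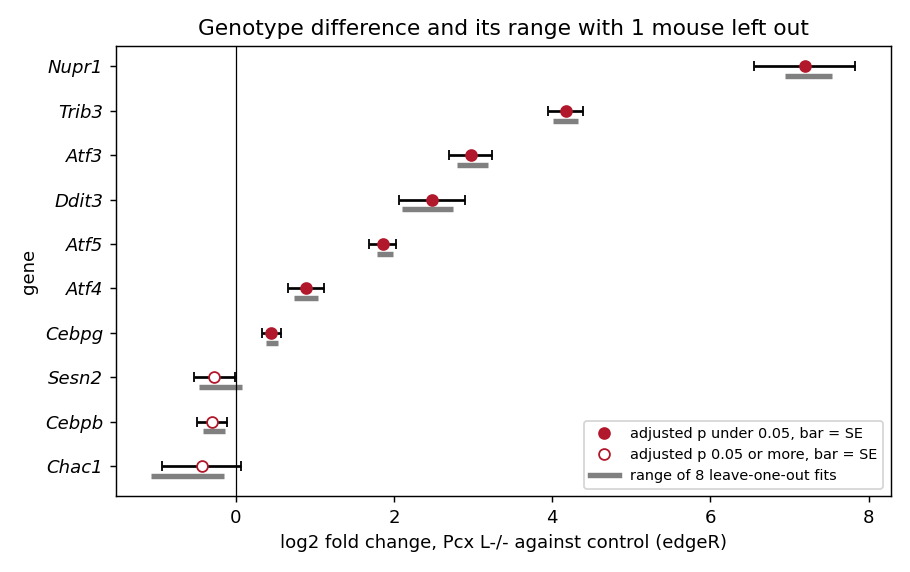
Log2 fold change of each gene, Pcx L-/- against control, from edgeR. Points carry bars of 1 SE, filled points have an adjusted p under 0.05, and grey bars give the range when each of the 8 mice was left out in turn. The grey bars of the 7 called genes stay above 0, and that of Sesn2 runs from -0.47 to 0.08.

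Trib3 encodes a pseudokinase that is switched on by Atf4 and Chop, binds Atf4 and can restrain it, and binds the insulin signalling kinase Akt (ENSMUSG00000032715, chr2:152337422-152344032, minus strand). In controls it was at 15.9, 15.8, 16.1 and 16.4 CPM, so the mice differed by no more than 1.04-fold. The coefficient of variation was 1.67%, below the 5.8% that counting error alone gives at the 297 reads of the deepest count, so this evenness is closer than counting would give on average. In Pcx L-/- replicates 1 to 4 Trib3 was at 187, 377, 250 and 339 CPM, a spread of 2.02-fold. Trib3 rose 18-fold (log2 fold change 4.17, SE 0.22, adjusted p = 4.01e-06) and had the 12th largest log2 fold change of the genes tested. Neither of its paralogs was called: Trib1 was at 41.4 ± 10.4 against 57.8 ± 9.56 CPM (adjusted p = 0.0698), and Trib2 at 2.21 ± 0.745 against 3.05 ± 0.463 CPM (adjusted p = 0.248).

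Nupr1, a small stress-induced protein of the nucleus that acts with transcription factors (ENSMUSG00000030717, chr7:126623249-126630861, minus strand), had 17.7, 102, 56.2 and 98.3 CPM in Pcx L-/- liver. The controls had 0.697, 0.575, 0.253 and 0.2 CPM, which are 13, 9, 4 and 2 reads. Nupr1 was close to undetected in control liver and moderately abundant in 3 of the 4 Pcx L-/- mice, with replicate 1 well below the others. It rose 146-fold (log2 fold change 7.19, SE 0.64, adjusted p = 1.59e-04), and only 1 of the genes tested had a larger log2 fold change. Because the control level rests on few reads, the fitted size was uncertain, and the log2 fold change ran from 4.52 to 8.48 over the other settings. The related gene Nupr1l was at 1.44 ± 0.471 against 1.06 ± 0.364 CPM and was not called (adjusted p = 0.391).

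Chac1 and Sesn2, both known as genes switched on by Atf4, were not called. Chac1 encodes an enzyme that degrades glutathione (ENSMUSG00000027313, chr2:119351229-119354381, plus strand). It had 3.06, 1.48, 0.596 and 0.643 CPM in Pcx L-/- liver and 1.07, 2.94, 1.96 and 1.8 CPM in controls, from 11 to 55 reads. The groups overlapped (log2 fold change -0.43, SE 0.50, adjusted p = 0.565). The coefficient of variation between Pcx L-/- mice was 79.6%, above the 13.5% to 30.2% that counting error gives at these reads.

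Sesn2 encodes sestrin 2, a leucine sensor that restrains mTORC1 (ENSMUSG00000028893, chr4:132492032-132510501, minus strand). It had 23.8, 21.9, 22.3 and 21.2 CPM in Pcx L-/- liver and 25.4, 15.3, 22.2 and 45.5 CPM in controls. The Pcx L-/- mice lay within the range of the controls, whose highest value came from WT replicate 4 (log2 fold change -0.27, SE 0.26, adjusted p = 0.473). Without that mouse the log2 fold change was 0.08, and with scaling by library size alone it was 0.04. The paralogs Sesn1 and Sesn3 fell, by 0.40 and 0.72 on the log2 scale (adjusted p = 0.0434 and 0.0426). With scaling by library size alone their log2 fold changes were -0.12 and -0.43 and neither was called, and with 1 mouse left out Sesn1 was called in 2 and Sesn3 in 3 of 8 fits.

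In exact two-sided permutation tests over the 8 mice, each of the 7 called genes gave p = 0.0286, the smallest that 4 mice against 4 allow. Groups that do not overlap always give this value, so it adds nothing to the separation given above. Benjamini-Hochberg adjustment over the 10 genes, which were chosen with earlier results known, gave 0.0409. The same exact tests gave p = 0.257 for Cebpb, 0.4 for Chac1 and 0.657 for Sesn2.

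Levels can be set side by side between genes only per length, for which the deposited FPKM values were used. They are scaled by library total without the TMM factors, so a level in Pcx L-/- stands somewhat higher against control than in CPM. Atf5 was the most abundant of the 10 genes in both genotypes, at 649 ± 85.8 FPKM in Pcx L-/- and 146 ± 20.5 FPKM in control liver. In controls Cebpb (72.8 ± 21.3), Atf4 (29.0 ± 7.6), Cebpg (10.6 ± 1.78) and Trib3 (7.17 ± 0.291 FPKM) came next, followed by Sesn2 (6.93 ± 2.86) and Ddit3 (4.70 ± 1.13 FPKM). Chac1, Atf3 and Nupr1 were at 1.08 ± 0.454, 0.321 ± 0.158 and 0.162 ± 0.0956 FPKM. In this control order Trib3 and Sesn2, Sesn2 and Ddit3, and Atf3 and Nupr1 did not differ beyond the ranges of their mice.

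In Pcx L-/- liver Trib3 moved from the 5th to the 2nd place, at 160 ± 55.9 FPKM, and Nupr1 from the 10th to the 6th, at 31.9 ± 19.2 FPKM. Cebpb (71.3 ± 6.49), Atf4 (65.8 ± 22.7), Ddit3 (32.7 ± 21.0), Nupr1 and Cebpg (17.6 ± 0.933 FPKM) followed Trib3, and each overlapped the next in its range over mice. Sesn2 (7.07 ± 0.355), Atf3 (3.18 ± 0.468) and Chac1 (0.932 ± 0.654 FPKM) had the lowest levels. The large log2 fold change of Atf3 therefore belonged to an mRNA that stayed scarce, and that of Trib3 to one that became abundant.

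The 6 bZIP members, Atf3, Atf4, Atf5, Ddit3, Cebpb and Cebpg, added up to 839 ± 112 FPKM in Pcx L-/- (736 to 981) and 263 ± 23.8 FPKM in control liver (238 to 291). Atf5 made up 77.4 ± 3.04% of this sum in Pcx L-/- mice (73.2 to 80.2%) and 55.6 ± 8.66% in controls (47.2 to 67.7%). The share of Cebpb was 8.68 ± 1.8% in Pcx L-/- and 27.4 ± 6.49% in control liver, with no overlap between mice. The share of Atf4 was 7.7 ± 2.0% and 11 ± 2.84%, and its ranges overlapped. Most of the bZIP sum was Atf5 mRNA in every Pcx L-/- mouse.

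Covariation among mice was described without a correlation, because the mice form a cluster of 4 for each genotype. Within Pcx L-/- liver, Atf4, Ddit3, Trib3 and Nupr1 ordered the mice alike: replicate 2 was highest, then replicates 4, 3 and 1. The same order was found for 8.95% of all genes tested. Atf3, Atf5, Cebpb, Cebpg, Chac1 and Sesn2 each had another order. In Pcx L-/- replicate 1, the deviation from the genotype mean in log2 CPM was -1.64 for Nupr1, -1.10 for Ddit3, -0.58 for Atf4 and -0.57 for Trib3, whereas it was 1.04 for Chac1. The spread of these 4 genes among Pcx L-/- mice thus grew from Atf4 and Trib3 to Ddit3 and Nupr1, with SDs of 0.455, 0.456, 0.963 and 1.16 in log2 CPM.

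Pcx L-/- replicate 1 was the library that stood apart in that genotype. It was the lowest of the 4 for 35.0% of all genes and the highest for 34.5%, and of the 10 genes followed here it was the lowest for 5 and the highest for 4. It also had the highest summed level of red blood cell markers, 4083 CPM, where Pcx L-/- mice started at 368 CPM and controls ran from 280 to 985 CPM. The part of red blood cells or of library quality in its lower Atf4, Ddit3, Trib3 and Nupr1 was not tested. It was also the only Pcx L-/- mouse whose number begins with 5, as 2 of the 4 control numbers do, so within Pcx L-/- liver the number series and this mouse cannot be told apart. Without this mouse the log2 fold changes were 1.04 for Atf4, 2.74 for Ddit3, 4.33 for Trib3 and 7.51 for Nupr1, and all 7 genes were again called.

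**Figure D3:**
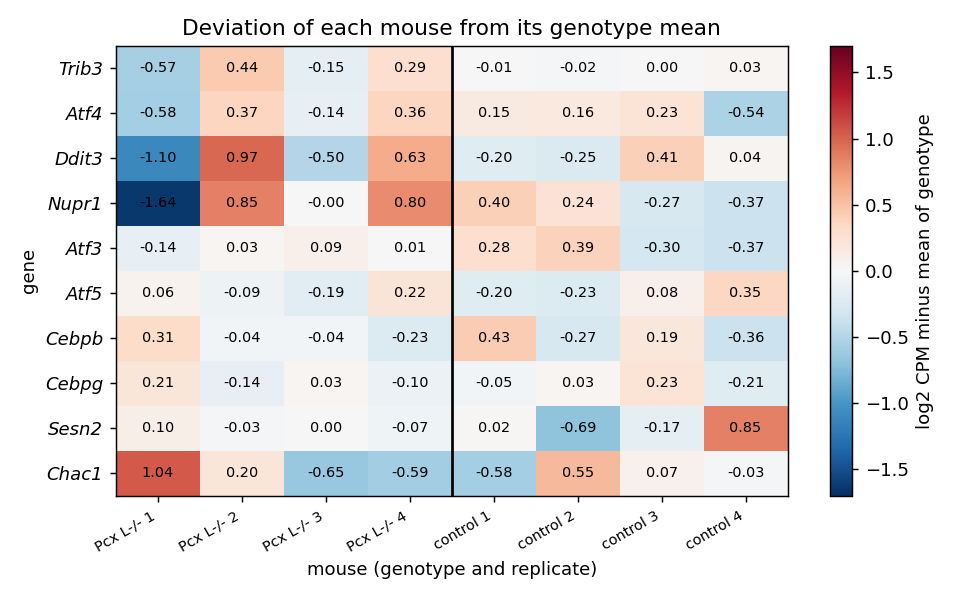
Deviation of each mouse from the mean of its genotype, in log2 CPM, for the 10 genes (rows) in 4 Pcx L-/- and 4 control mice (columns). Red is above and blue below the genotype mean. Trib3, Atf4, Ddit3 and Nupr1 are lowest in Pcx L-/- replicate 1, and Trib3 stays within -0.02 and 0.03 in controls.

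Among controls Trib3 barely moved. It deviated by -0.02 to 0.03, while Atf4 was low in WT replicate 4 (-0.54) and Nupr1 was high in replicate 1 (0.40) and low in replicate 4 (-0.37). The control levels of Nupr1 rest on 2 to 13 reads. Their coefficient of variation, 56.2%, lay within the 27.7% to 70.7% that counting error gives at these reads. The signs of Nupr1 in controls therefore carry little weight. Ddit3 had the sign of Trib3 in 8 of 8 mice, as did 2.31% of all genes, but the control deviations of Trib3 are too small for their signs to carry weight. Atf4 had the sign of Trib3 in 4 of 4 Pcx L-/- mice and in 1 of 4 controls. Nupr1 had it in 4 of 4 Pcx L-/- mice, where replicate 3 lay at its genotype mean, and in 0 of 4 controls. Nupr1 had the sign of Atf4 in 3 of 4 controls and in 7 of 8 mice, and 8.07% of all genes matched Atf4 in at least as many mice. In all, 15.2% of genes had the sign of Trib3 in all 4 Pcx L-/- mice.

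Trib3 and Atf4 kept a nearly fixed proportion in Pcx L-/- liver, a pattern picked out after its values were seen. The ratio of normalized counts, not corrected for length, was 2.87, 2.99, 2.83 and 2.71 in Pcx L-/- replicates 1 to 4. The controls gave 0.269, 0.263, 0.256 and 0.449. In Pcx L-/- mice the ratio varied by 1.1-fold, while Atf4 itself ranged from 65.0 to 126 CPM. By the SD of the log2 ratio to Atf4 over the 4 Pcx L-/- mice, Trib3 (0.059) had place 14 of 13167 genes, that is, among the steadiest 0.106%. The ratios of the genotypes did not overlap, and no test of this is given, since Trib3 rose far more than Atf4.

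Pcx L-/- replicate 1 and the controls show the difference in proportion most plainly. Atf4 was at 65.0 CPM in that Pcx L-/- mouse and at 62.9 CPM in WT replicate 3, yet Trib3 was at 187 and 16.1 CPM. The ratio of Ddit3 to Atf4 was less even, at 0.168, 0.375, 0.189 and 0.296 in Pcx L-/- replicates 1 to 4, and that of Nupr1 was 0.273, 0.81, 0.636 and 0.785. Chac1 differed from Atf4 by 9.15-fold among Pcx L-/- mice. Atf5 relative to Atf4 ran from 7.93 to 17.0 in Pcx L-/- and from 4.13 to 10.2 in control mice, and these overlapped.

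**Figure D4:**
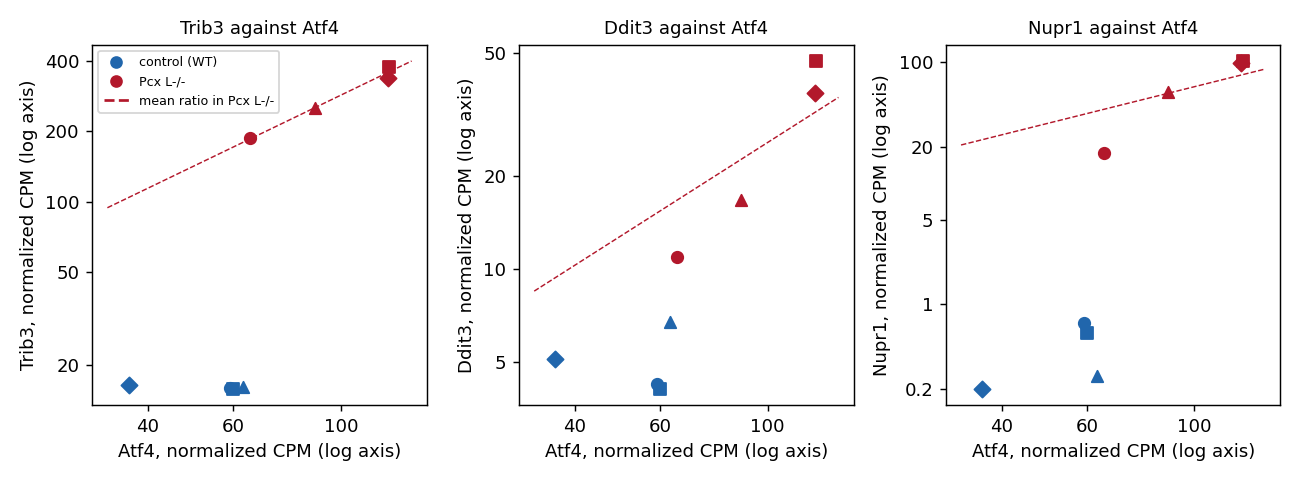
Normalized CPM of Trib3, Ddit3 and Nupr1 against Atf4 in each mouse (log axes), with Pcx L-/- in red, controls in blue and the symbol giving the replicate (circle 1, square 2, triangle 3, diamond 4). The dashed line is the mean ratio to Atf4 in Pcx L-/- mice: the 4 Pcx L-/- mice lie along it for Trib3 (mean 2.85), they scatter around it for Ddit3, where the ratio runs from 0.168 to 0.375, and replicate 1 lies farthest from it for Nupr1.

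The genes whose pattern over the 8 mice was most like that of Trib3 were sought among 12243 genes. The measure was the root mean square difference of log2 CPM relative to the control mean. It depends on the size of the genotype difference as well as on the order of the mice, so a near gene need not covary with Trib3. Psat1, which encodes a serine synthesis enzyme, was nearest to Trib3 (0.28), followed by Cidec, a lipid droplet protein (0.52), and Gm6614 (0.61). Psat1 rose from 1.05 ± 0.356 to 24.0 ± 7.22 CPM (log2 fold change 4.48, adjusted p = 2.93e-05). Pinx1 (0.10), Rbpms (0.13) and Pdrg1 (0.13) were nearest to Atf4. Within the set, Atf3 was the nearest member to Trib3 at 1.23 and had place 23 among all genes compared, and Cebpg was the nearest to Atf4 at 0.50 but had only place 2021. Atf3 nevertheless ordered the Pcx L-/- mice otherwise than Trib3, whereas Atf4 ordered them as Trib3 did.

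The members share a promoter feature in part. The windows from 250 bases before to 50 bases after the start were taken from RefSeq (GRCm38.p6) and held all 10 genes, with 2 windows for Atf5. The C/EBP-ATF composite motif TGATGNAA, searched on both strands, was in the windows of Atf3, Chac1, Nupr1 and Trib3. These are 4 of 10 genes and 4 of their 11 windows, against 2.29% of 12949 promoters of tested genes and 3.97% of all 32851. Some members, such as Chac1 and Trib3, are already known as genes switched on by Atf4, so this share describes the set and tests nothing. The 4 matches are shown because the list holds both genes with large differences and Chac1, which was not called. Each is read 5′ to 3′ along the gene's strand, and the capitals mark the match, here on the opposite strand of the motif as spelled above.
Atf3, chr1:191183410-191183469, minus strand: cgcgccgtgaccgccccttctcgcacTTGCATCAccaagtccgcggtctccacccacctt
Nupr1, chr7:126625547-126625606, minus strand: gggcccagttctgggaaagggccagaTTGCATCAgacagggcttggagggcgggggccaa
Chac1, chr2:119351023-119351082, plus strand: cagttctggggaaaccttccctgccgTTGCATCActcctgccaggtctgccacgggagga
Trib3, chr2:152344029-152344056, minus strand: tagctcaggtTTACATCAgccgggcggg

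Relative to the RefSeq start of the window, the matches lay at -110 to -103 in both Atf3 and Nupr1, at -193 to -186 in Chac1 and at 15 to 22 in Trib3. The genes with a match thus differed widely in their response: 146-fold for Nupr1, 18-fold for Trib3, 7.84-fold for Atf3, and no call for Chac1. The cyclic AMP response element TGACGTNA was found in Atf3 alone among the members (4.57% of promoters of tested genes), and the AP-1 site TGANTCA in Ddit3 alone (5.39%). The C/EBP motif TTGCNNAA was in 0 of the 10 genes (9.14%), and the CCAAT box in 7 of 10 (37.2%). No match of the composite motif overlapped a match of another motif. These are matches of letters in 1 window per start and were not tested as binding sites. For Atf3 and Nupr1 the windows lie inside the gene spans given above, whose upstream ends are at chr1:191218039 and chr7:126630861. Their starts are thus internal to those spans, and the use of these starts in liver was not tested.

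The rest of the pathway was followed from lists of known genes. Scaling by library size alone moved the median over all genes from -0.01 to 0.28 in log2 fold change, and under it 0 genes of the 4 pathway lists were called lower, so the falls in these lists are given relative to the bulk of genes. Of the 8 genes for eIF2α kinases, eIF2α itself, its phosphatase subunits and the Gcn2 inhibitor Impact, 3 were higher and 2 lower, with a median log2 fold change of 0.08. Over all genes tested, 14.1% were higher and 13.5% lower with a median of -0.01, which is the background for each list that follows. Ppp1r15a, the stress-induced phosphatase subunit Gadd34, rose by 0.98 (SE 0.29, adjusted p = 0.0295). Eif2s1, which encodes eIF2α, rose by 0.89 (SE 0.13, adjusted p = 0.00135), and Eif2ak3, the endoplasmic reticulum kinase Perk, by 0.59 (SE 0.18, adjusted p = 0.0305). The genotypes overlapped for Ppp1r15a (10.6 to 34.8 CPM in Pcx L-/- against 10.1 to 12.3 CPM) and Eif2ak3 (14.3 to 27.3 against 12.5 to 15.3 CPM), but not for Eif2s1. Only 1 gene of this list was called higher without Pcx L-/- replicate 2 or 4 or WT replicate 1, 2 or 3. The kinases Pkr (Eif2ak2) and Gcn2 (Eif2ak4) fell by 0.44 and 0.40 on the log2 scale (adjusted p = 0.0337 and 0.0491), and with 1 mouse left out they were called in 2 and 1 of 8 fits. These calls were less stable than those of the 10 genes. Leaving out 1 mouse left between 1 and 6 of the 8 genes called, with 1 called when Pcx L-/- replicate 2, Pcx L-/- replicate 4 or WT replicate 2 was left out, 2 when any of Pcx L-/- replicate 3 or WT replicates 1, 3 and 4 was, and 6 without Pcx L-/- replicate 1.

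Of 21 known targets of Atf4 for amino acid synthesis and transport, 19 were tested, 9 were higher and 2 lower, with a median log2 fold change of 0.38. Besides Psat1, the largest were Asns, asparagine synthetase (2.46, SE 0.37, adjusted p = 0.00132), and Pycr1, of proline synthesis (2.37, SE 0.31, adjusted p = 0.00082). The lowest were the amino acid transporter Slc38a2 and the mitochondrial serine hydroxymethyltransferase Shmt2, which fell by 0.75 and 0.57 (adjusted p = 0.0419 and 0.0243). With scaling by library size alone they were at -0.46 and -0.31 and not called. With 1 mouse left out each was called in 3 of 8 fits, and 0 genes of this list were called lower without Pcx L-/- replicate 2, Pcx L-/- replicate 4, WT replicate 1 or WT replicate 3. Of the 13 genes for tRNA charging, 12 were higher and 0 were lower, with a median log2 fold change of 0.58. With 1 mouse left out, 8 to 13 were called, with 8 when Pcx L-/- replicate 4 or WT replicate 2 was dropped. Iars, Sars and Gars, the synthetases for isoleucine, serine and glycine, rose most, by 1.13, 1.11 and 0.97 (adjusted p = 0.000835, 0.000206 and 0.000999), Cars rose by 0.38 (adjusted p = 0.0357), and Mars at 0.22 was not called.

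Of 17 tested genes in a list of other targets, 8 were higher and 3 lower, with a median of 0.44. The hormones Fgf21 and Gdf15 and the growth arrest gene Gadd45a rose most, by 4.23, 3.99 and 3.95 (adjusted p = 0.000735, 0.000454 and 0.000971). Herpud1, of endoplasmic reticulum protein degradation, and Klhl24 fell by 0.55 and 0.53 (adjusted p = 0.0262 and 0.0197), and with 1 mouse left out they were called in 3 and 5 of 8 fits. Leaving out Pcx L-/- replicate 2 or replicate 4 left 7 of the 17 called. These target genes moved in the same 8 livers as the transcription factors, so they are not a separate sample.

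The relatives of the 10 genes were a chosen list of other bZIP, tribbles, sestrin, Chac and Nupr genes, not all of them. The list also holds Cebpz, which shares the C/EBP name but is not a bZIP factor, and which was called higher (0.43, adjusted p = 0.0418). The listed genes showed no common direction. Of 37 tested, 6 were higher and 7 lower, shares near the 14.1% and 13.5% of all genes, and the median log2 fold change was -0.06. Fos and Junb, of the AP-1 group, rose by 1.53 and 1.42 (adjusted p = 0.0409 and 0.00223) and Mafk by 0.69 (adjusted p = 0.0178). The genotypes overlapped for Fos and Mafk but not for Junb. With 1 mouse left out, relatives called higher numbered 1 (without Pcx L-/- replicate 4 or WT replicate 1) to 8 (without Pcx L-/- replicate 1). They numbered 2 without Pcx L-/- replicate 2 or 3 or WT replicate 2 or 3. The circadian output factor Hlf fell by 0.84 (adjusted p = 0.00187) and was called in 8 of 8 fits with 1 mouse left out. Leaving out 1 mouse left 3 to 17 of the 37 called, from 3 without Pcx L-/- replicate 4 to 17 without Pcx L-/- replicate 1, with 4 when Pcx L-/- replicate 2 or WT replicate 1 was dropped, 5 when Pcx L-/- replicate 3 or WT replicate 3 was, and 8 when WT replicate 2 was. With scaling by library size alone, 9 of the 37 were higher and 1, Hlf, was lower, the median turned to 0.22, and 29.7% of all genes were higher and 6.61% lower. Among C/EBP genes outside the set, Cebpd fell by 0.47 (adjusted p = 0.0425, called in 3 of 8 fits with 1 mouse left out), and Cebpa, at 418 ± 68.6 against 484 ± 34.8 CPM, was not called (adjusted p = 0.298). Atf6, a sensor of endoplasmic reticulum stress, rose by 0.58 (adjusted p = 0.0427), and its genotypes overlapped (105 to 160 CPM in Pcx L-/- against 71.3 to 128 CPM).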

How the data were processed

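RNA of frozen liver was sequenced by a company. The authors deposited raw read counts per Ensembl gene, aligned to mm10 (GRCm38), and FPKM values. Of the 142384 FPKM values above 0, 100% equal the count scaled by library total and by 1 constant length per gene, within 1e-06. That length was derived from the same values and was not checked against an annotation. The submitters' processing notes name STAR 2.5, HTSeq 0.6.1 and DESeq2, whereas the annotation release and the use of strand were not given in the sources used here. Symbols came from GENCODE M21 (34490 of 35275 identifiers).

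Counts were fitted with edgeR 4.0.16 (R 4.3.3) with TMM factors, filterByExpr (minimum count 10, minimum total 15), the quasi-likelihood F test on genotype alone and Benjamini-Hochberg correction over 13168 genes, with 6 residual degrees of freedom. Standard errors were taken from F and are approximate. The exact permutation tests used log2(CPM + 0.5). Other settings tried were DESeq2 1.42.0, other scalings and filters, limma 3.58.1 on log2(FPKM + 1) and log2(FPKM + 0.1), a replicate block, the mouse number series, and each mouse left out. The steps were tested on simulated data.

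The 10 members and all gene lists, markers included, were chosen with earlier results of these data known. Beside the members and Pcx, the text names the 3 highest and 2 lowest log2 fold changes of each pathway list and of the relatives and the 3 genes most like Trib3 and Atf4. Of these, 1 of the relatives is not reported here. Paralogs, overlapping genes, Cebpa, Cebpd, Cebpz and Atf6 were added after their values were seen.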

Additional observations from a re-analysis of the deposited data

Results flagged for a closer look

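The level of Atf4 in WT replicate 4, at 36.5 CPM, lay far below the other 3 controls, with a gap of 0.888 of the range of its group in log2 CPM, above Dixon's 95% critical value for 4 samples. Of 20 groups examined (10 genes in 2 genotypes) this was the 1 found, and chance gives about 1 in 20. Without this mouse the log2 fold change of Atf4 was 0.74 with an adjusted p of 0.0282 by edgeR.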

How the results depend on the processing

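Of the 10 genes, 6 or 7 were called higher and 0 lower under 18 alternatives, the 6 resulting from Atf4 without Pcx L-/- replicate 4 (0.77, adjusted p = 0.0518) or from Cebpg with only the mice whose numbers begin with 8 (0.36, adjusted p = 0.107), without Pcx L-/- replicate 3 (0.45, 0.0535) or without WT replicate 1 (0.43, 0.0586). The adjusted p ranged from 0.0016 to 0.0518 for Atf4 and from 0.00161 to 0.107 for Cebpg. The log2 fold changes of Sesn2 and Cebpb, which were not called, changed sign. That of Sesn2 was 0.04 with library size alone, 0.09 and 0.11 with limma on log2(FPKM + 1) and log2(FPKM + 0.1), 0.09 with limma on all genes, and -0.47 to 0.08 with 1 mouse left out. That of Cebpb was 0.01 in the 3 limma fits. Scaling by library size alone moved the median of all genes to 0.28 and the share of calls that were higher from 51.1% to 81.8%, with 82.1% to 83.4% on FPKM.

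Of the kinase and phosphatase genes, 1 was called by limma on all genes, 3 with the mouse number series as covariate, and 1 to 6 with 1 mouse left out, against 5. Of the other targets 7 to 12 were called with 1 mouse left out, against 11. Of the relatives, 8 were called by limma on all genes and 3 to 17 with 1 mouse left out, against 13. The causes were not tested. With a replicate block, 3 of the kinase and phosphatase genes and 7 of the 10 members were called. Deviations of same-numbered mice correlated at 0.101, -0.131, -0.101 and -0.0703, so the numbers were not taken as pairs. Reads were few for Atf3 and Nupr1 in controls, at 2 to 17 per library, and for Chac1, at 11 to 55. Each value rests on 4 mice a genotype.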
